A study of Homo sapiens with 4 samples.

Results

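The genes described here are 44 imprinted genes, chosen by gene symbol from a list written for this work. The rule for the list used no measured value, but the list was written with earlier results of these data known. All 44 symbols were matched in the deposited gene table, which holds 77973 genes. HERC3 matched more than 1 identifier, and the identifier with more reads was used. From general knowledge, 22 of the 44 are expressed from the paternal copy, 11 are expressed from the maternal copy, and for 11 the expressed copy depends on the isoform or tissue or is not settled in human. The reads carry no information here on which parental copy they came from, so all values below are sums over both copies.

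Transcripts were read by long-read PacBio complementary DNA sequencing (Iso-Seq) of polyadenylated RNA in induced cortical neurons (i3N), which are made by switching on the transcription factor NGN2 in human pluripotent stem cells. There were 4 libraries, 1 per group: a control, a knockdown of TDP-43, 5-azacytidine treatment, and both treatments together. All 4 came from a KOLF2.1J-derived line that carries doxycycline-inducible NGN2 and makes the repressor fusion dCas9-BFP-KRAB at all times, so the control cells carry the repressor too. A lentivirus brought in either a non-targeting guide RNA (control and azacytidine) or a guide RNA against TDP-43 (knockdown and both), and each guide gave a puromycin-selected stable pool rather than a clone. Azacytidine was given at 5 µM for 72 hours after the neuronal spheroids had been plated. The labels give 2 possible harvest days and do not say which applied to which library, and nothing says that the libraries came from separate cultures. With 1 library per group, no test below compares conditions over replicates.

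An imprinted gene is expressed mainly or only from the copy inherited from 1 parent. The mark that tells the copies apart is DNA methylation set in the germ line at an imprinting control region, copied onto new DNA by the maintenance methyltransferase DNMT1 and protected by KRAB zinc finger proteins such as ZFP57 and ZNF445. The nucleoside analog 5-azacytidine is built into RNA and DNA, where it traps DNA methyltransferases, which is why imprinted genes are read as a test of it. Many imprinted genes act in growth, placenta and brain, and several have separate imprinted and non-imprinted promoters.

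The sequences shown are the RefSeq promoters of 4 genes whose reads or start sites are discussed below, each 300 bases from 250 before to 50 after the annotated start, on GRCh38.p14, 5′ to 3′ on the strand of the gene. CpG dinucleotides, where most DNA methylation sits, are in capitals. The PLAGL1 window is chr6:144064550-144064849 on the minus strand and is not the promoter that carried most of the gene's reads. The SNRPN window, chr15:24856321-24856620 on the plus strand, belongs to an upstream start. The MEST window, chr7:130485925-130486224 on the plus strand, is the promoter that is not imprinted. The ZNF331 window, chr19:53520764-53521063 on the plus strand, is the first of the gene's 3 start groups with at least 10 reads.
PLAGL1: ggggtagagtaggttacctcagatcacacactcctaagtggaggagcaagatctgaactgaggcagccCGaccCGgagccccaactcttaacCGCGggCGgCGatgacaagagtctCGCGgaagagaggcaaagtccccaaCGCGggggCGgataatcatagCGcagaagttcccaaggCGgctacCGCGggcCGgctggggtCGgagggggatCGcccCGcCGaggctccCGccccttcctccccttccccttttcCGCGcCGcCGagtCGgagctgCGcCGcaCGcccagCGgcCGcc
SNRPN: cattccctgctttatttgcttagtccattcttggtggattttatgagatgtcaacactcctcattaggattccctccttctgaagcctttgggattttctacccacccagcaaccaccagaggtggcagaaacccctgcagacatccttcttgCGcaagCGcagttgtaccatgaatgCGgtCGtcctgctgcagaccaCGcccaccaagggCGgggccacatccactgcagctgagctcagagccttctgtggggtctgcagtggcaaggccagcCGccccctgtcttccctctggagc
MEST: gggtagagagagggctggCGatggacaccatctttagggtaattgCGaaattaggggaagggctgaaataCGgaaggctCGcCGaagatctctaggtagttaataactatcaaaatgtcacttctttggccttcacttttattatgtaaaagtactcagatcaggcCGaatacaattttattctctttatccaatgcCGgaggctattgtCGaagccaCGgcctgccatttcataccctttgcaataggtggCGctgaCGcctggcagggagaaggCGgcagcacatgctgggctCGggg
ZNF331: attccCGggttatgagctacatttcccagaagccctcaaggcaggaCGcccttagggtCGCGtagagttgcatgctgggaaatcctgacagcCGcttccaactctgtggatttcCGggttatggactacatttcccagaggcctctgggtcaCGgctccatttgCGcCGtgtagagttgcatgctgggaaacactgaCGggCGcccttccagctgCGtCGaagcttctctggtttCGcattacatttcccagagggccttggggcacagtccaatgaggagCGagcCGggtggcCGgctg
These windows held 31 CpG in PLAGL1, 7 in SNRPN, 13 in MEST and 17 in ZNF331. RefSeq promoters were matched for 27 of the 44 genes. Their median was 18 CpG per 300 bases, with a range from 4 to 44, beside a median of 14 over 27305 promoters of the same length. Medians were 16.5 CpG for 12 paternally expressed genes, 15 for 7 maternally expressed genes and 35.5 for the 8 others. The ubiquitin ligase gene UBE3A and the adaptor gene GRB10 had the most, with 44 CpG each. The letters TGCCGC, which ZFP57 binds when methylated, were searched on both strands and occurred in 9 of the 27 promoters (33.3%) and in 16.7% of all promoters. A match is a description of the letters and does not show binding.

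The libraries held 595158 reads (control), 767621 (knockdown), 466337 (azacytidine) and 477622 (both), after the deposited counts were divided by 2 because every gene count was even. Levels are given as CPM, reads per 1000000 of the effective library size. TARDBP, the gene of TDP-43, had 104 control reads, 72 knockdown reads, 73 with azacytidine and 43 with both, log2 ratios of -0.67 and -0.73 with adjusted p = 0.017 and 0.0573 (exact binomial tests), so it did not pass the call rule used below. Neuron markers were present in all libraries, with summed levels between 2449 and 3303 CPM. Summed levels of proliferating-cell markers were 676 and 651 CPM without azacytidine and 50.6 and 43.3 with it, and those of neural progenitor markers were 794 and 719 against 166 and 130. Called lower with azacytidine were 5 of 5 tested proliferation markers (MKI67, TOP2A, CDK1, CCNB1 and BUB1) and, among 4 tested progenitor markers, PAX6 and VIM. Among 11 tested neuron markers RBFOX3 was called higher with azacytidine, and among 4 tested pluripotency markers DPPA4 and SALL4 were called lower. Summed pluripotency markers were 484 and 556 CPM without azacytidine and 285 and 351 with it. Mesenchymal markers summed to 83.9 and 86.1 against 14.2 and 4.13, with TWIST1 at 0 in every library, and astrocyte markers to 48.4 and 48.2 against 2.02 and 0, with AQP4 at 0 in every library. The part of these cell populations in the azacytidine results below was not tested. In bulk RNA, fewer cells of a type and less RNA per cell cannot be told apart.

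Of the 44 genes, 21 averaged 20 reads or more over the libraries and were tested, 8 had a mean from 5 to 20, and 15 had less than 5, of which MEG9, ZIM2 and NLRP2 had 0 reads in every library. The tested genes comprised 10 paternally expressed, 2 maternally expressed and 9 isoform- or tissue-dependent genes, with means from 22.25 to 474 reads. Maternally expressed genes were thus poorly covered: the only tested ones were UBE3A and the phosphatase-binding gene PPP1R9A.

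**Figure D1:**
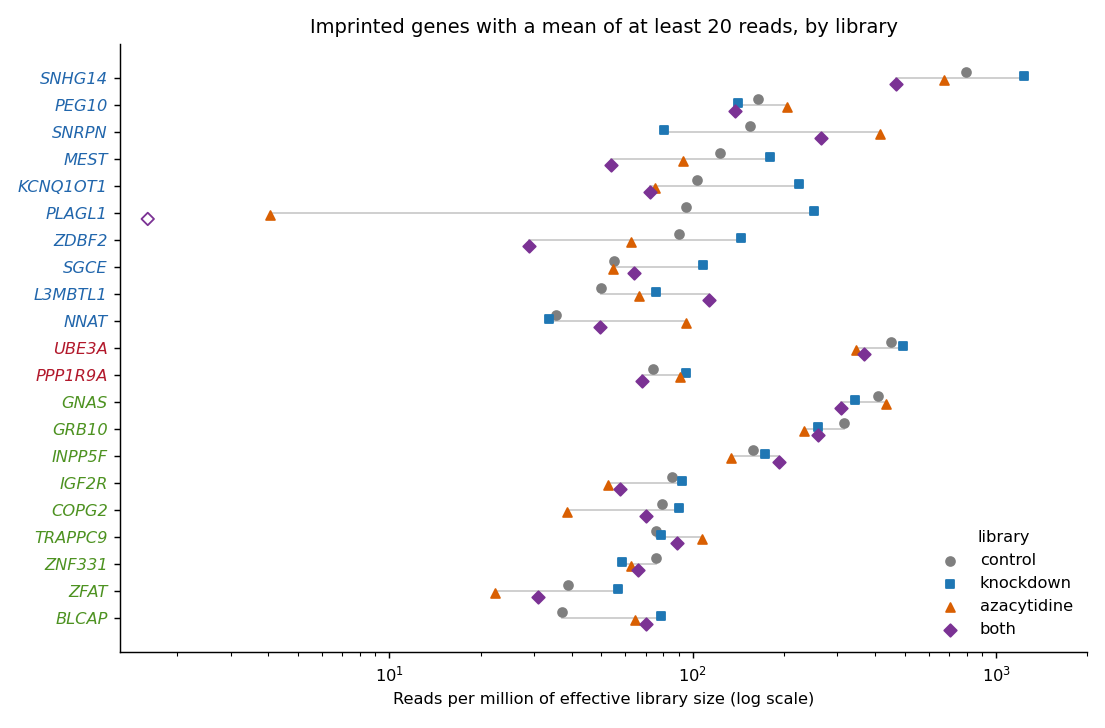
Levels in CPM of effective library size (log axis) of the 21 imprinted genes tested, 1 symbol per library; blue names are paternally expressed, red maternally expressed and green isoform- or tissue-dependent genes, and an open symbol at the left edge marks 0 reads. PLAGL1 fell from 95.2 and 251 CPM to 4.05 and 0 with azacytidine, and SNRPN rose from 155 and 80.3 CPM to 415 and 264.

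Azacytidine was examined in 2 pairs that share no library: azacytidine against control (the first pair) and both treatments against knockdown (the second pair). A gene was called when the two-sided exact binomial test gave an adjusted p under 0.05, the log2 ratio was at least 1 in size, and the direction was the same in each pair. Among the imprinted genes 2 of 21 were called, PLAGL1 lower and SNRPN higher, beside 9.82% of all 8145 genes tested (2.93% higher and 6.89% lower). The count for the imprinted genes was thus near the background. Both called genes are paternally expressed. Such a test compares the reads of the libraries, not the conditions.

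PLAGL1 encodes a zinc finger transcription factor that restrains cell growth and is expressed from the paternal copy (chr6:143940300-144064599, minus strand). PLAGL1 had 59 control reads, 172 knockdown reads, 2 with azacytidine and 0 with both treatments. The libraries with azacytidine were thus nearly or fully empty, and those without it did not overlap them. The reads were 23.5-fold lower in the first pair, with a 95% interval of the log2 ratio from -7.63 to -2.64 (adjusted p = 2.54e-11, exact binomial test). In the second pair they were at least 40.6-fold lower, taking 3 reads as the limit for a count of 0 (adjusted p = 4.67e-38, exact binomial test). The additive edgeR model over all 4 libraries, in which the interaction serves as error, gave a log2 change of -6.19 with adjusted p = 0.00167; that model called 10.3% of all genes with azacytidine. Of the reads assigned to a transcript, 33 and 65 without azacytidine began at the second start group, chr6:144008118-144008823, where the known imprinted transcripts begin, and 0 and 0 with it. The first start group, whose promoter is printed above, had 2 control reads, 2 knockdown reads and 0 in the others. Without azacytidine, PLAGL1 was higher in the knockdown than in the control by 1.39 on the log2 scale (adjusted p = 6.1e-10, exact binomial test), but the pair with azacytidine held 2 and 0 reads and could not repeat this.

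SNRPN encodes a small nuclear ribonucleoprotein and lies at the imprinting centre of the Prader-Willi and Angelman region (chr15:24823637-24978723, plus strand). SNRPN had 96 control reads, 55 knockdown reads, 205 with azacytidine and 128 with both. Both libraries with azacytidine lay above both without it. The gene rose 2.68-fold in the first pair (log2 1.42, 95% interval 1.07 to 1.79) and 3.29-fold in the second (log2 1.71, 1.25 to 2.20), with adjusted p = 1.44e-14 and 3.23e-13 (exact binomial tests), and the additive edgeR model gave adjusted p = 0.0099. Only 24.6% of its reads were assigned to a transcript. Those numbered 23, 26, 51 and 19 in the order control, knockdown, azacytidine and both, so that the second-pair log2 ratio was 0.05 among them (95% interval -0.89 to 0.96). The reads assigned to the gene but to no transcript numbered 73, 29, 154 and 109, and the second-pair log2 ratio among these was 2.39. The rise in the second pair therefore rested on reads without a transcript. SNRPN transcripts are short, with a mean length of 1537 bases, and with the trend over transcript length removed the mean log2 ratio was 1.11, with a first-pair value of 0.98, and the call was lost.

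The other tested genes of this chromosome 15 domain, SNHG14 and UBE3A, were not higher with azacytidine in either pair. SNHG14, the paternally expressed host of snoRNAs that runs antisense into UBE3A, had 494 control reads, 844 knockdown reads, 332 with azacytidine and 226 with both. Its log2 ratio was -0.25 in the first pair (adjusted p = 0.0614) and -1.40 in the second (adjusted p = 2.89e-42, exact binomial tests), so only the second passed; with the length trend removed that ratio was -0.81, under the limit of size. UBE3A, expressed from the maternal copy in neurons, had 280, 338, 171 and 178 reads in the same order. It was lower in each pair by less than the log2 limit of 1, at -0.38 (95% interval -0.67 to -0.10) and -0.42 (-0.70 to -0.16), with adjusted p = 0.0266 and 0.00511 (exact binomial tests). With total counts as scale the second adjusted p was 0.144, and with the length trend removed the ratios were -0.27 (adjusted p = 0.16) and -0.05 (adjusted p = 0.841), so the threshold was lost. Among UBE3A reads assigned to a transcript the log2 ratios were -0.25 (95% interval -0.58 to 0.08) and -0.17 (-0.50 to 0.16). Among those assigned to none they were -0.73 (-1.31 to -0.19) and -0.91 (-1.41 to -0.44). SNHG14 and UBE3A overlap by 86609 bases on opposite strands, and whether counting used the strand is not given in the sources used here, so reads of the pair may be mixed. NDN and MAGEL2, intronless genes of the same MAGE family, had 17, 7, 19 and 8 reads and 10, 15, 11 and 6 reads. MKRN3, a ubiquitin ligase gene linked to the timing of puberty, had 7, 3, 0 and 1. These 3 genes were below the number of reads needed for a test.

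Some paternally expressed genes passed in the second pair alone. In that pair 8 of the 21 imprinted genes (38.1%) had an adjusted p under 0.05, beside 42.3% of all genes. MEST, a hydrolase-like gene, had 76 control reads, 123 knockdown reads, 46 with azacytidine and 26 with both, giving log2 ratios of -0.39 (adjusted p = 0.299) and -1.73 (adjusted p = 7.82e-09, exact binomial tests). KCNQ1OT1, the long noncoding RNA that silences its neighbours on the paternal chromosome 11, had 64, 154, 37 and 35 reads, with log2 ratios of -0.46 and -1.63. Its mean transcript length was 91667 bases, and with the length trend removed the ratios were -0.11 and -0.43 (adjusted p = 0.886 and 0.193, exact binomial tests), so the pass was lost in that setting. The second-pair KCNQ1OT1 ratio was -1.44 with total counts as scale, -1.82 with uniquely assigned reads and -2.05 with full-length reads. ZDBF2, a zinc finger gene, had 56, 99, 31 and 14 reads, with log2 ratios of -0.52 and -2.29. In each of these 3 genes the knockdown library was the highest of the 4, so the second pair was read against the highest library. The first-pair 95% intervals included 0 for MEST, KCNQ1OT1 and ZDBF2. KCNQ1OT1 overlaps KCNQ1, a potassium channel gene with 4, 3, 0 and 0 reads, by 102696 bases on the opposite strand.

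NNAT, a small membrane proteolipid gene of developing neurons that sits in an intron of BLCAP on the opposite strand, passed in the first pair alone. It had 22, 23, 47 and 24 reads in the order control, knockdown, azacytidine and both, so that the azacytidine library stood above the other 3 (log2 1.40 with adjusted p = 0.000761, and 0.55 with adjusted p = 0.296, exact binomial tests). The first-pair pass was lost with the length trend removed (log2 0.88, adjusted p = 0.0602) and with divided transcript counts (log2 1.04, adjusted p = 0.0541). BLCAP, whose expressed copy depends on the isoform, had 23, 54, 32 and 34 reads and log2 ratios of 0.79 and -0.17. COPG2, a coatomer subunit gene whose tail overlaps that of MEST by 239 bases, had 49, 62, 19 and 34 reads and log2 ratios of -1.02 and -0.36, past the threshold in the first pair alone and not with divided transcript counts (adjusted p = 0.461). PEG10 and SGCE share a promoter region on chromosome 7 and point away from each other. PEG10, derived from a retrotransposon, had 102, 97, 101 and 67 reads, and SGCE, a sarcoglycan gene, had 34, 74, 27 and 31. Neither met the rule: the log2 ratios were 0.31 and -0.03 for PEG10 and -0.01 and -0.75 for SGCE. The second PEG10 ratio joined opposite moves. Reads assigned to a transcript numbered 95 in the knockdown and 44 with both (log2 -0.61, 95% interval -1.16 to -0.08). Those assigned to none numbered 2 and 23 (log2 3.68, 2.01 to 7.15). PPP1R9A in the same domain had 46, 65, 45 and 33 reads, with log2 ratios of 0.29 and -0.47. L3MBTL1, a Polycomb-family gene, had 31, 52, 33 and 55 reads and ratios of 0.41 and 0.58, which did not pass.

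The remaining tested genes, all isoform- or tissue-dependent, did not meet the rule. GNAS, the gene of the stimulatory G protein subunit, had 253, 234, 215 and 149 reads, with log2 ratios of 0.09 (95% interval -0.18 to 0.36) and -0.15 (-0.46 to 0.15). GRB10, an inhibitor of insulin receptor signalling, had 195, 178, 115 and 125 reads, with ratios of -0.43 (-0.78 to -0.09, adjusted p = 0.0404, exact binomial test, and 0.058 with total counts as scale) and -0.01 (-0.35 to 0.33). INPP5F, a phosphoinositide phosphatase gene, had 98, 119, 66 and 93 reads, with ratios of -0.24 and 0.14. For GNAS and for the second GRB10 pair the intervals did not reach a 2-fold difference between the libraries in either direction. They cover counting error only and set no limit on the effect of the treatment. IGF2R, which clears insulin-like growth factor 2, had 53, 63, 26 and 28 reads and ratios of -0.69 and -0.66 with adjusted p = 0.12 and 0.09 (exact binomial tests). TRAPPC9, a trafficking complex gene, had 47, 54, 53 and 43 reads, the zinc finger gene ZFAT had 24, 39, 11 and 15, and the zinc finger gene ZNF331 had 47, 40, 31 and 32. None of these 4 genes passed in either pair.

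**Figure D2:**
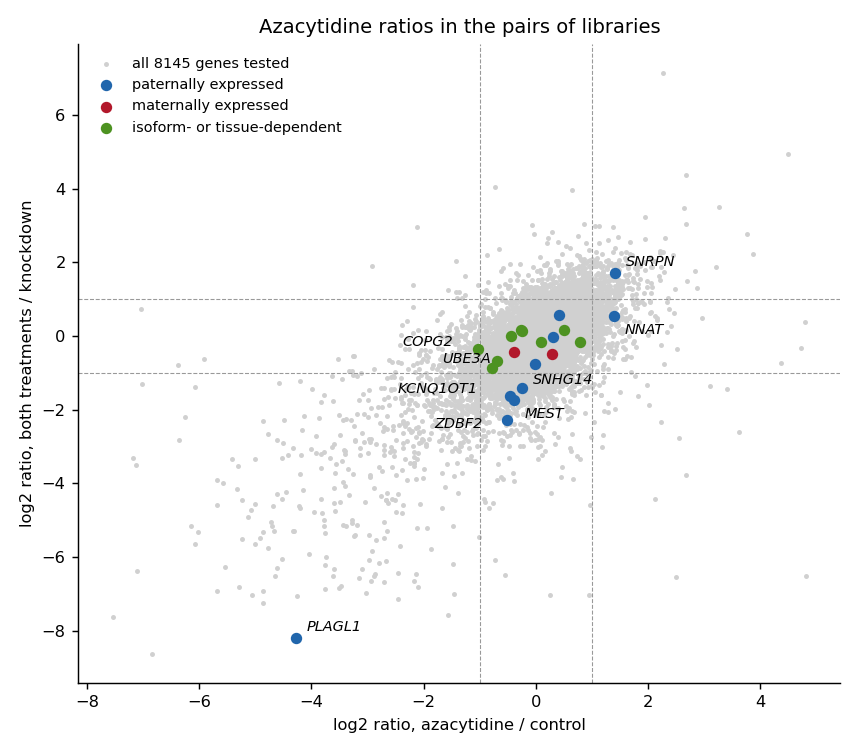
The log2 ratio of azacytidine over control (horizontal) against that of both treatments over knockdown (vertical) for all 8145 genes tested (grey) and the 21 imprinted genes tested (coloured by expressed copy); dashed lines mark a log2 ratio of 1 in size. PLAGL1 lies at -4.28 and -8.20 and SNRPN at 1.42 and 1.71, and no other imprinted gene is beyond the lines in each pair.

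Genes with few reads showed where the depth ended. CDKN1C, a maternally expressed gene that blocks the cell cycle, had 8 control reads, 4 knockdown reads, 24 with azacytidine and 10 with both. The libraries with azacytidine held more reads than those without, at log2 ratios of 1.84 (95% interval 0.71 to 3.28) and 1.68 (0.03 to 3.95). Adjusted over 13789 genes averaging 5 reads or more, p was 0.00484 and 0.0772 (exact binomial tests), so CDKN1C was not called. No imprinted gene averaging 5 to 20 reads was called. With 5 reads as the minimum, 2 of 29 imprinted genes were called, again PLAGL1 and SNRPN, beside 8.67% of those 13789 genes. DLK1, a Notch ligand-like gene, had 30, 14, 6 and 7 reads, with the control highest: the azacytidine log2 ratios were -1.92 (95% interval -3.55 to -0.71, adjusted p = 0.00535) and -0.48 (adjusted p = 0.671, exact binomial tests, adjusted over the 13789 genes), so only the first pair passed. The remaining genes of this range were HERC3 (13, 23, 10 and 6 reads), ZNF597 (10, 16, 7 and 7), PEG13 (9, 11, 11 and 8) and NAP1L5 (9, 6, 8 and 7), with NDN and MAGEL2 given above. PEG13 lies within TRAPPC9 on the same strand and NAP1L5 within HERC3 on the opposite strand.

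Several well-known imprinted genes were almost undetected. The long noncoding RNA MEG3, a marker of the imprinting state of the DLK1 domain in stem cells, had 0, 2, 2 and 0 reads, and H19 had 0, 1, 1 and 0. IGF2, the fetal growth factor gene opposite H19, had 3, 7, 1 and 0 reads, MEG8 had 2, 4, 0 and 1, RTL1 had 3, 0, 0 and 0, and GNAS-AS1 had 4, 8, 2 and 4. DIRAS3 had 2, 2, 0 and 1 reads, PEG3 0, 2, 0 and 0, PHLDA2 1, 0, 1 and 0, and DLGAP2-AS1 1, 0, 0 and 0. No gain of H19, MEG3 or PHLDA2 with azacytidine was detectable at this depth, where a count of 0 allows up to 3 reads.

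Paternally and maternally expressed genes were compared as groups, as a description, since genes are not replicates. Among genes averaging 5 reads or more, the median over genes of the mean azacytidine log2 ratio of the pairs was -0.17 for 15 paternally expressed genes and -0.25 for 4 maternally expressed genes, beside -0.03 for all 13789 genes. By pair the paternal medians were 0.15 and -0.48, the maternal medians 0.06 and -0.45, and those of all genes 0.05 and -0.10. With the genes whose imprinting depends on the tissue placed otherwise (INPP5F as paternal, IGF2R and TRAPPC9 as maternal, KCNQ1 and PPP1R9A left out), giving 16 and 5 genes, the paternal medians were 0.07 and -0.26 and the maternal medians -0.18 and -0.42, with medians of the mean ratio of -0.11 and -0.40. The sign of the first-pair maternal median thus depended on the assignment. Ratios below 0 in each pair were found for 7 paternally expressed genes (46.7%), 2 of the 4 maternally expressed genes and 35.3% of all genes. Ratios above 0 in each pair were found for 6 paternally expressed genes (SNRPN, NDN, NNAT, L3MBTL1, NAP1L5 and PEG13) and 1 maternally expressed gene (CDKN1C). These are 40% and 25% of the groups, beside 33.9% of all genes, and NDN, NAP1L5, PEG13 and CDKN1C averaged under 20 reads. The paternally expressed genes spread more widely, from -4.28 to 1.42 in the first pair and from -8.20 to 1.71 in the second, while the maternally expressed genes ranged from -0.38 to 1.84 and from -0.66 to 1.68. The small number of maternally expressed genes limits this comparison. The signs of the group medians also changed with the read table used: with full-length reads the paternal median was 0.19, and with the length trend removed the maternal median was 0.10.

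**Figure D3:**
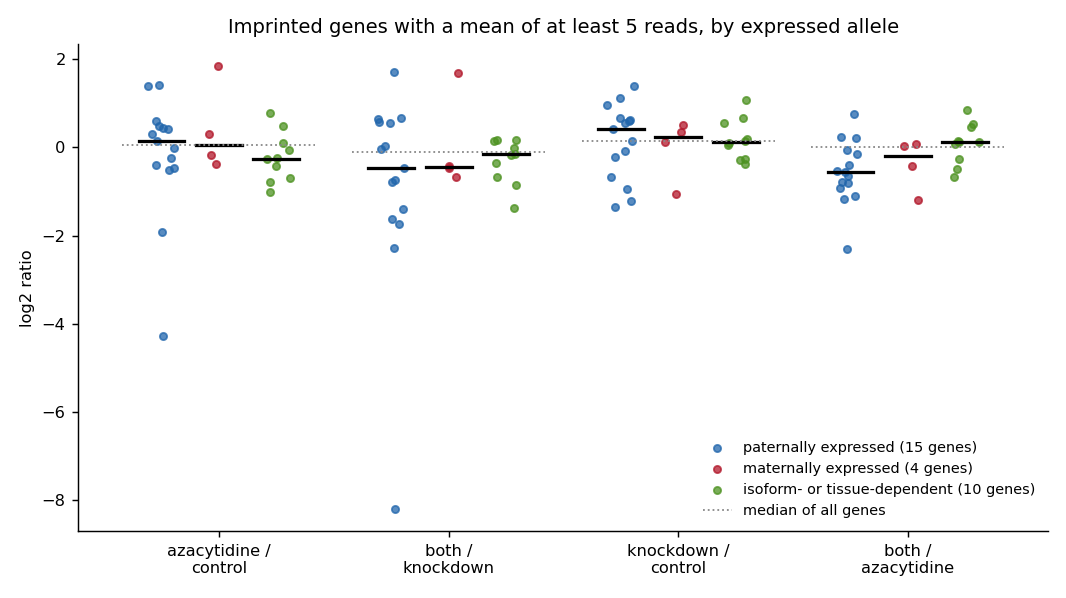
The log2 ratios of the imprinted genes averaging 5 reads or more in the 2 azacytidine pairs and the 2 knockdown pairs, by expressed copy; each point is a gene, black bars are medians over genes and dotted lines the median of all genes. With azacytidine the paternal and maternal medians are 0.15 and 0.06 in the first pair and -0.48 and -0.45 in the second, and PLAGL1 is the lowest point.

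The knockdown was likewise examined in 2 pairs, with the control library as reference in the first and the azacytidine library in the second. None of the 21 imprinted genes was called, beside 0.97% of all genes tested (0.626% higher and 0.344% lower). With an unadjusted p under 0.05 in each pair and the same direction there was 1, SNRPN, which is 4.76% of 21 beside 7.37% of all genes, and the additive edgeR and DESeq2 models called 0 (the edgeR model called 0.0368% of all genes). SNRPN was lower in the knockdown in each background, by log2 ratios of -0.94 (95% interval -1.45 to -0.46) and -0.65 (-0.98 to -0.33), with adjusted p = 0.0011 and 0.00113 (exact binomial tests), which is below the limit of size. Of the SNRPN reads assigned to a transcript there were 23 in the control and 26 in the knockdown, and of those without one 73 and 29, so the first-pair difference lay in the reads without a transcript. In the second pair, transcript reads were 51 and 19 and the others 154 and 109. Among genes with fewer reads, NDN had 17 control and 7 knockdown reads, and 19 with azacytidine and 8 with both.

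Without azacytidine, 8 imprinted genes had an adjusted p under 0.05 in the knockdown against the control, 7 higher and 1 lower, out of 21 (38.1%, beside 20.1% of all genes). Over all genes, 1335 were higher and 304 lower by this threshold, so most genes past it were higher too. The 7 higher imprinted genes were KCNQ1OT1, SGCE, MEST, SNHG14, BLCAP, PLAGL1 and ZDBF2. Of these 7, 6 are paternally expressed, as are 10 of the 21 imprinted genes tested. Their log2 ratios ran from 0.55 for MEST to 1.39 for PLAGL1. In the second pair, knockdown against its control with azacytidine in both, 3 of 21 had an adjusted p under 0.05 (14.3%, beside 15% of all genes) and all were lower: SNRPN, SNHG14 and GNAS. Over all genes, 740 were higher and 483 lower by this threshold in the second pair. None of the 7 genes was higher by this threshold in the second background, so the second pair did not repeat the first. The knockdown library held the most reads of the 4, and with total counts as scale the median of all genes in this pair moved from 0.14 to -0.08. Of the 7 genes, 3 were then still higher with an adjusted p under 0.05 (KCNQ1OT1, SNHG14 and PLAGL1), 5 with DESeq2 size factors (these and BLCAP and SGCE), and 4 with the length trend removed (BLCAP, MEST, PLAGL1 and SGCE). PLAGL1 alone was among them under each of these 3 scalings. The group medians of the mean ratio were -0.21 for paternally expressed genes, 0.04 for maternally expressed genes and 0.06 for all genes. By pair the paternal medians were 0.42 and -0.56, so the sign turned with the background, and the maternal medians were 0.24 and -0.19. The crosswise pairing (knockdown against control, azacytidine against both), which follows neither treatment, called 0 imprinted genes beside 0.54% of all genes.

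Imprinting acts on promoters, so transcripts were grouped by start site, with starts within 500 bases joined, and the share of the gene's transcript reads from each start group was compared by Fisher's exact test. A call required an adjusted p under 0.05 and a change of at least 10 percentage points in the same direction in each pair. Start groups are numbered from the 5′ end of the gene. Of 51 start groups of the imprinted genes tested, 1 was called with azacytidine (1.19% of 5634 groups of all genes) and 0 with the knockdown (0.532%). Single transcripts gave the same picture, with 1 of 87 called with azacytidine (1.12% of 15446) and 0 with the knockdown (0.725%), and both calls are the same GNAS transcript.

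The called GNAS start group, the eighth, lies at chr20:58893095-58893100, downstream of the start of the main Gs-alpha transcripts, and its reads came from 1 annotated transcript of 3921 bases and 12 exons (ENST00000684284.1). It had 23 of 97 transcript reads in the control (23.7%, 95% Wilson interval 16.4 to 33.1), 35 of 128 in the knockdown (27.3%), 0 of 108 with azacytidine (0%, upper limit 3.4) and 4 of 95 with both (4.2%). The share fell, with differences of -23.7 and -23.1 percentage points and adjusted p = 1.38e-06 and 0.000191 (Fisher's exact tests). Uniquely assigned reads numbered 18, 22, 0 and 0, and full-length reads 18, 22, 0 and 1.2, so the difference did not rest on reads divided among transcripts. The start group of the main Gs-alpha transcripts, chr20:58891302-58892333, had 16, 25, 57 and 31 reads. Its share rose by 36.3 points in the first pair and by 13.1 points in the second, where it did not pass (adjusted p = 0.187, Fisher's exact test). Uniquely assigned reads there numbered only 5, 4, 5 and 0, and full-length reads 6, 9, 24.5 and 8.5. The rise thus did not appear in uniquely assigned reads and lay mostly in reads divided among transcripts. The imprinted exon A/B start, chr20:58888413-58889227, had 28, 22, 26 and 25 reads, and its share did not pass in either pair. The NESP55-region start, chr20:58840844-58841654, had 9, 2, 0 and 22 reads and moved in opposite directions in the pairs; none of these reads was uniquely assigned.

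MEST has an imprinted start and an upstream start used from both copies. The imprinted start, chr7:130492085-130492472, had 31 control reads, 60 knockdown reads, 10 with azacytidine and 10 with both, while the upstream start, whose promoter is printed above, had 30, 27, 31 and 14. The shares of the imprinted start were 49.2%, 69.0%, 23.8% and 41.7%. The differences with azacytidine were -25.4 and -27.3 points, but adjusted p was 0.135 and 0.132 (Fisher's exact tests), so this was not called. In reads, the log2 ratio of the imprinted start was -1.27 (95% interval -2.50 to -0.24) and -2.04 (-3.22 to -1.11), and that of the upstream start 0.37 (-0.40 to 1.15) and -0.44 (-1.49 to 0.53).

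The first ZNF331 start, chr19:53520948-53521856, had 17, 13, 3 and 0 reads, and the second, chr19:53537253-53538788, had 10, 5, 13 and 14. The share of the first was 41.5% in the control, 44.8% in the knockdown, 12.0% with azacytidine and 0% with both (of 26 reads, upper Wilson limit 12.9). The differences were -29.5 points (adjusted p = 0.134) and -44.8 points (adjusted p = 0.00169, Fisher's exact tests), so only the second pair passed, while the gene as a whole had log2 ratios of -0.27 and 0.18. GRB10 reads from the first start, chr7:50792684-50793462, numbered 27, 23, 9 and 8, and those from the second start, chr7:50782445-50782910, numbered 17, 14, 6 and 7, without a call. For INPP5F no share passed in any pair: the imprinted downstream start, chr10:119818686-119819507, had 18, 19, 20 and 16 reads, and the upstream start, chr10:119726042-119726530, had 35, 47, 35 and 32. SNRPN transcripts began mostly at the third start group, chr15:24954935-24955005, with 14, 15, 39 and 12 reads, and the upstream start whose promoter is printed had 4, 7, 6 and 6. Shares at the SNRPN starts did not pass in any pair. UBE3A reads came almost only from 1 start group, with 192, 202, 127 and 127 reads.

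**Figure D4:**
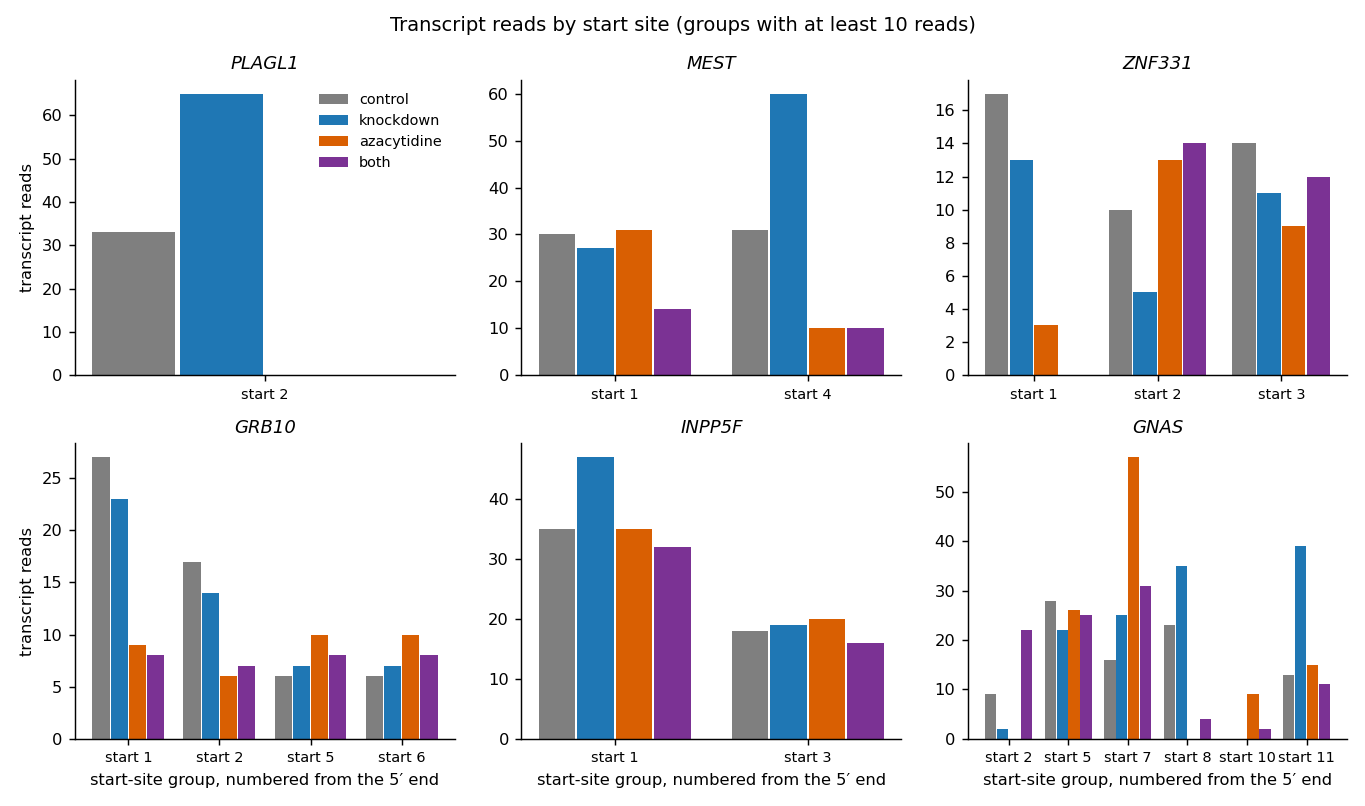
Transcript reads (bars from 0) of the start groups with at least 10 reads in 6 imprinted genes with several promoters, by library; groups are numbered from the 5′ end and bars are rounded reads. PLAGL1 start 2 went from 33 and 65 reads to 0 and 0, GNAS start 8 from 23 and 35 to 0 and 4, and INPP5F start 3 had 18, 19, 20 and 16.

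Genes that set or keep imprints were examined as a separate list of 18, of which 14 were tested. With azacytidine 1 of the 14 was called, beside 9.82% of all genes tested (6.89% lower). This was UHRF1, the partner that brings DNMT1 to hemimethylated DNA, which fell from 100 and 147 reads to 8 and 2 (log2 -3.25 and -5.43). UHRF1 is also a gene of dividing cells, and the proliferation markers given above fell in the same libraries. The part of dividing cells in the UHRF1 difference was not tested. DNMT1 had 81, 130, 47 and 81 reads in the order control, knockdown, azacytidine and both and was not called (log2 -0.45 and -0.18). The ratios were below 0 for 13 of the 14 genes in the first pair, 9 in the second and 8 in each (57.1%, beside 35.3% of all genes), and the list's median was -0.22 in the first pair and -0.30 in the second, beside 0.05 and -0.10 for all genes. ZFP57 had 0, 1, 0 and 0 reads and ZNF445 had 41, 65, 32 and 37. The knockdown called none of the 14.

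Neighbouring genes, 60 genes near the same domains of which 35 were tested, gave 5 calls with azacytidine: BEGAIN and WARS1 higher, and UTRN, WLS and GNG12 lower. The neighbours were listed from general knowledge. Whether each is free of imprinting was not checked, so some of them, KCNK9 among the candidates, may be imprinted. UTRN, a dystrophin relative that is a neighbour of PLAGL1, had 37, 94, 5 and 3 reads in the order control, knockdown, azacytidine and both. WLS, needed for Wnt secretion, and GNG12, a G protein gamma subunit gene, are neighbours of DIRAS3 and had 91, 127, 5 and 1 reads and 29, 53, 3 and 7. BEGAIN and WARS1 near DLK1 had 30, 10, 50 and 59 reads and 48, 60, 117 and 122. The share of neighbours called, 5 of 35, and that of imprinted genes, 2 of 21, stand beside 9.82% of all genes. The median over neighbours of the mean azacytidine ratio was -0.09. No neighbour was called with the knockdown.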

How the data were processed

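Groups came from the treatment labels. Per the submitters' processing notes and the file headers, reads were aligned to hg38 with minimap2, and the annotation names Bambu as its source; versions, the reference annotation and strand use are not given in the sources used here. The deposited gene and transcript tables hold expected counts made by the authors; the uniquely assigned table holds deposited counts. The deposited CPM table, made by the authors from those counts, was not used. All gene counts were even and were halved. The planned tests assumed 1 count per read.

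Genes were compared by exact binomial tests given TMM sizes (edgeR 4.0.16, all genes with reads), p-values adjusted by Benjamini-Hochberg over 8145 genes averaging 20 reads or more, and a pseudocount of 0.5 for ratios. Fisher's exact tests used rounded reads, at least 10 per start group or transcript and a mean of 20 transcript reads per gene. Additive edgeR and DESeq2 1.42.0 models on rounded counts were alternatives. Intervals are 95% (Clopper-Pearson for ratios, Wilson for shares), and they and the limit of 3 reads for a count of 0 cover counting error only. On simulated data the rule recovered 83.5% of 200 genes changed 2 log2 units with azacytidine, with 0 false calls and 0 crosswise calls. The simulated reads held Poisson counting error and no further variation between libraries, so these 0 calls say nothing about such variation. In the measured libraries the crosswise pairing called 0.54% of all genes tested. The rate of false calls in the measured libraries was not tested. All 44 genes are accounted for; list genes are named where called, and DNMT1, ZFP57 and ZNF445 were named after their values were seen. The genes and lists were chosen with earlier results of these data known.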

Additional observations from a re-analysis of the deposited data

Results flagged for a closer look

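SNHG14 had knockdown ratios of opposite sign in the 2 backgrounds, each past the adjusted threshold (exact binomial tests): 494 reads in the control against 844 in the knockdown (log2 0.63, adjusted p = 7.38e-13), and 332 with azacytidine against 226 with both (log2 -0.53, adjusted p = 0.000492). The ratios differed by 1.15 on the log2 scale. The difference itself was not tested, and with 1 library per group it cannot be told apart from a difference between single libraries. SNHG14 overlaps UBE3A on the opposite strand, and UBE3A had 280 and 338 reads, and 171 and 178, in the same pairs. With the length trend removed the first-pair log2 ratio of SNHG14 was 0.18 (adjusted p = 0.132). The second-pair ratio was above 0 with uniquely assigned reads (0.18) and with divided transcript counts (0.34), so the opposite signs depended on the read table.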

How the results depend on the processing

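The azacytidine calls, 2 of 21 imprinted genes, were 2 with total counts or DESeq2 size factors as scale, a pseudocount of 2, lower read minimums and the additive edgeR and DESeq2 models. They became 0 with uniquely assigned reads and 0 with full-length reads, where 6 and 4 imprinted genes had enough reads to be tested. PLAGL1 and SNRPN had too few such reads to be among them, so these settings could not repeat either call. The calls became 1 (PLAGL1) with the length trend removed. They were also 1 (PLAGL1) with sums of divided transcript counts, an alternative chosen after seeing the data. In these last 2 settings SNRPN had mean log2 ratios of 1.11 and 0.68. Without the halving there were 3, CDKN1C joining (beside 12.7% of all genes tested). With no limit of size there were also 3, UBE3A joining as lower (beside 16.3%). Knockdown calls went from 0 to 1 with counts as deposited (NDN) and to 1 with no limit of size (SNRPN), and crosswise calls from 0 to 1 with no limit of size (SNHG14). Over all genes, knockdown calls were 51 higher and 28 lower, and 27 higher and 55 lower with total counts. The maternal knockdown median of 0.04 became -0.53 with uniquely assigned reads. Start groups called with azacytidine went from 1 to 2 with starts within 100 bases joined, both in GNAS. Of the mean ratios of single genes, 364 kept their direction and side of the threshold, 2 lost the threshold (SNRPN, above), 2 gained it, and 26, none of them called, changed sign. With total counts these were, for azacytidine, PPP1R9A (0.0132), GNAS (0.075), INPP5F (0.0551) and ZNF331 (0.0562), and for the knockdown SNHG14 (-0.0915), UBE3A (-0.036) and IGF2R (-0.0228). With the length trend removed they were, for azacytidine, PPP1R9A (0.25), BLCAP (-0.094) and INPP5F (0.0152), and for the knockdown SNHG14 (-0.21), UBE3A (-0.13) and IGF2R (-0.14). With divided transcript counts they were, for azacytidine, PEG10 (-0.24), GNAS (0.20) and INPP5F (0.11), and for the knockdown PPP1R9A (0.22), GNAS (0.20) and BLCAP (-0.0304). With uniquely assigned reads they were INPP5F with azacytidine (0.32) and UBE3A with the knockdown (-0.29), and with full-length reads UBE3A with the knockdown (-0.0735). The additive DESeq2 model changed GNAS with azacytidine (0.0087) and SNHG14 with the knockdown (-0.0453), the additive edgeR model PLAGL1 with the knockdown (1.19), and a pseudocount of 2 PLAGL1 with the knockdown (0.19). No paired analysis was possible because every label carries replicate 1 and each group has 1 library, and leaving out a library would leave a group empty. Depth limits most genes: 23 of the 44 could not be tested.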
